A study of Homo sapiens with 31 samples.

Results

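The dose question rests on 6 ribosome profiling libraries: 3 made after 10 µM of the mTOR inhibitor PP242 and 3 made after 1 µM, out of 31 libraries in the series. They were chosen by their labels alone, and each 10 µM library was paired with the 1 µM library of the same genotype. All came from HEK293 T-REx, a human embryonic kidney cell line, exposed to the compound for 30 min. The genotypes were naive (the label for cells without a knockout), EIF4A1 KO and EIF4A2 KO, with 1 library at each dose and 2 DMSO libraries for each genotype. The 6 DMSO libraries served as the background. Labels do not say whether a knockout line is a single clone, nor whether replicates came from separate cultures. A p-value here therefore measures the spread between libraries, which may be technical. In the paired comparison that spread is how unequal the dose change was between genotypes. It thus also holds any real difference between genotypes in the response to dose.

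mTORC1 is a kinase complex that couples nutrient and growth signals to protein synthesis. PP242 competes with ATP in the mTOR kinase, so it blocks phosphorylation of the 4E-BP proteins, which then hold the cap-binding factor eIF4E, and of the RNA-binding protein LARP1, which then represses mRNAs that begin with a 5′ terminal oligopyrimidine (TOP) tract. TOP mRNAs encode ribosomal proteins and translation factors, and their footprints fall sharply when mTOR is inhibited. eIF4A1 and eIF4A2 are closely related RNA helicases that work with eIF4E and eIF4G to prepare mRNAs for initiation.

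Ribosome profiling sequences RNA fragments protected by ribosomes (footprints), and the authors deposited raw counts per Ensembl transcript. Gene names are not paired with the transcript IDs in the files or in any table used here. TOP mRNAs, lineage markers of the cell line and the EIF4A1 and EIF4A2 mRNAs were therefore not looked up, no sequence could be matched, and genotypes rest on the labels. Levels below are CPM, the counts of a transcript relative to the total of its library after scaling. A difference of 1 on the log2 scale is a doubling. Scaling removes a change common to all transcripts, so total translation cannot be compared between libraries. The 1 µM and 10 µM libraries held 3989408 and 2686076 counts in naive cells, 3981695 and 6419106 with EIF4A1 knocked out, and 4358425 and 5042686 with EIF4A2 knocked out. The higher dose thus had the shallower library in naive cells and the deeper one in both knockouts. Each PP242 library correlated best with the other dose of its own genotype.

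Raising PP242 from 1 to 10 µM changed no transcript's footprints in a direction common to the 3 genotypes by enough to pass the test. Among 18433 transcripts, edgeR's quasi-likelihood test with genotype as the pairing term called 0 (0%) at an adjusted p under 0.05, and its lowest adjusted p was 0.172. At an unadjusted p under 0.05 there were 764 (4.14%), of which 364 were higher and 400 lower at 10 µM. DESeq2's Wald test also called 0, with 23 at an unadjusted p under 0.05. This count changed most without the EIF4A1 KO pair, when 62 transcripts were called, and those are described below. That fit pooled the spread over all transcripts, while the fit of 6 libraries pooled it only in part. The share of the pair and of the pooling in the change of count was not tested. Without the naive pair 1 was called, and without the EIF4A2 KO pair 0.

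The intervals show which sizes of a shared dose effect are compatible with the values of a transcript taken singly. They do not give the size that the test would call, since calls were adjusted over all transcripts tested. For the 6027 transcripts with a mean of at least 32 CPM, the 95% confidence interval of the 10 µM minus 1 µM difference had a median half-width of 0.17 on the log2 scale. It lay wholly within ±0.5 for 6002 of them (99.6%) and within ±1 for all 6027. At 5 to 32 CPM the median half-width was 0.37, and 4286 of 8732 intervals (49.1%) stayed within ±0.5. Below 5 CPM none of the 3674 intervals was that narrow, and 2451 (66.7%) stayed within ±1. A shared log2 change beyond 0.5 thus lay outside the interval of nearly every abundant transcript, while for rare transcripts a change of 1 was not always outside it.

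Within a genotype, the libraries at both doses were nearly as alike as a pair of DMSO libraries. Over 5756 transcripts of at least 32 CPM in the 12 libraries, the SD of the log2 difference between 10 and 1 µM was 0.17 for naive, 0.15 for EIF4A1 KO and 0.14 for EIF4A2 KO. Between the DMSO libraries it was 0.14, 0.17 and 0.14, in the same order. Counting error alone would give 0.14, 0.11 and 0.11 for the dose pairs, and 0.11, 0.16 and 0.11 for the DMSO pairs. The spread beyond counting was 0.11, 0.10 and 0.089 between doses and 0.089, 0.079 and 0.088 between DMSO libraries. Differences above 0.5 were rare between doses, with 53 transcripts (0.921%) for naive, 21 (0.365%) for EIF4A1 KO and 18 (0.313%) for EIF4A2 KO. The DMSO pairs gave 4, 53 and 16.

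**Figure D1:**
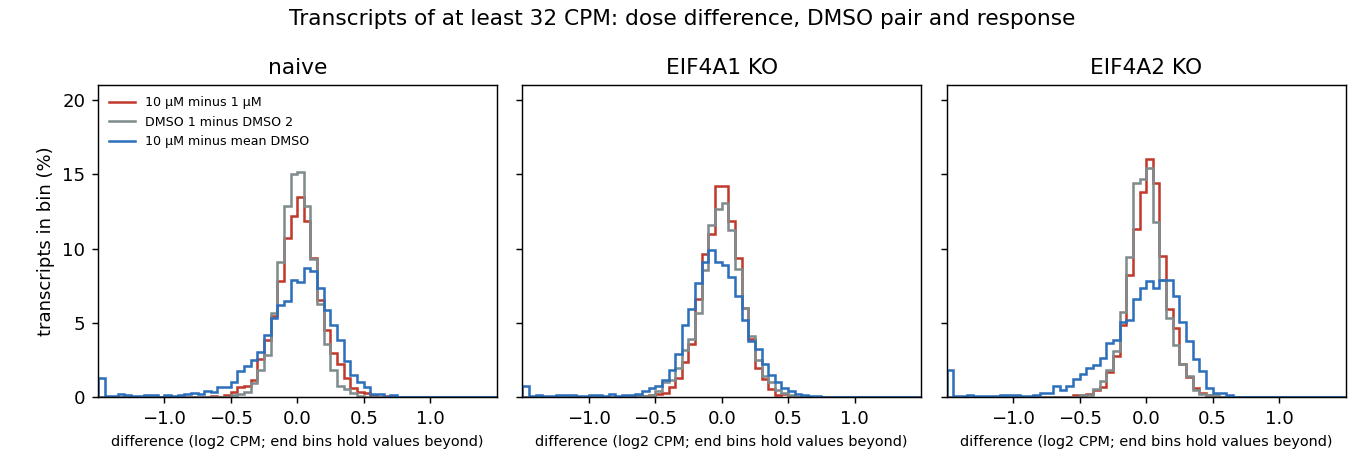
Distribution of log2 CPM differences over 5756 transcripts of at least 32 CPM in each genotype: 10 µM minus 1 µM (red), DMSO library 1 minus DMSO library 2 (grey) and 10 µM minus the mean of the DMSO libraries (blue). The vertical axis is the percent of transcripts per bin of 0.05. The red and grey outlines nearly coincide, with SDs of 0.14 to 0.17, while the blue outline is wider and has a tail to the left.

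By contrast, both doses moved footprints away from DMSO. The SD of the log2 difference from the DMSO mean was 0.41 at 1 µM and 0.36 at 10 µM in naive cells, 0.31 and 0.29 without EIF4A1, and 0.42 and 0.40 without EIF4A2. In the fit of genotype and treatment over all 12 libraries, 1278 of 19870 transcripts (6.43%) were called at 1 µM, 920 lower (4.63%) and 358 higher (1.8%). At 10 µM there were 1090 (5.49%), 802 lower (4.04%) and 288 higher (1.45%). Falls of more than 1 were called for 192 transcripts at 1 µM and 180 at 10 µM, and rises of more than 1 for 7 and 8. Both contrasts use the same DMSO libraries, so their counts are set side by side only. In relative levels, the lower dose thus already gave as many calls and as wide a response as the higher one.

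From 1 to 10 µM, the medians of the responding transcripts moved in opposite directions in naive and EIF4A1 KO cells. To describe this, responsive transcripts were defined in a pair of genotypes by a fit of PP242 (both doses) against DMSO, and then read in the genotype whose libraries had no part in the definition. In naive cells, the 755 transcripts that fell in the knockouts had a median of -0.53 at 1 µM and -0.43 at 10 µM relative to DMSO. Their median change from 1 to 10 µM was 0.14, and 577 (76.4%) were higher at 10 µM, beside a median of 0.0045 and 50.5% over all 19870 transcripts. Between the naive DMSO libraries, library 1 was above library 2 for 50.7% of the 755. Other responsive groups differed more between DMSO libraries. Of the 495 that rose in EIF4A1 KO cells, library 1 was above library 2 for 30.3% in naive and 75.6% in EIF4A2 KO cells. Shares of this size can thus arise between libraries of the same treatment. Relative to the rest of the library, these repressed transcripts were slightly less low in the 10 µM than in the 1 µM library of naive cells.

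The shift in naive cells was widest among the most repressed transcripts. The 172 that fell by more than 1 in the knockouts went from -1.66 at 1 µM to -1.45 at 10 µM, with a median change of 0.28, and 157 (91.3%) were higher at 10 µM. Of the 172, 13 were called higher at 10 µM within naive cells by the test described below, beside 16 of all 19870 transcripts (0.0805%). The 172 had a median log2 CPM of 7.83, against 3.65 over all transcripts, so this comparison is not matched for abundance. Those that fell by 0.5 to 1 (229 transcripts) had a median change of 0.13, and those that fell by less (354) one of 0.094. The 218 that rose in the knockouts moved toward DMSO as well, from 0.27 to 0.24.

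EIF4A1 KO cells had medians that went the other way. The 2093 transcripts that fell in naive and EIF4A2 KO cells had medians here of -0.082 (1 µM) and -0.14 (10 µM). The median change from 1 to 10 µM was -0.074, and 1402 (67.0%) were lower at 10 µM, against 51.2% of all transcripts. For the 244 that fell by more than 1 elsewhere, the medians were -0.97 and -1.02 and 182 (74.6%) were lower at the higher dose. In the same 244, DMSO library 1 was above DMSO library 2 for 61.5%, with a median difference of 0.039. The 1795 that rose in the other genotypes had medians of -0.0099 and 0.034, with a median change of 0.040.

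In EIF4A2 KO cells the falling transcripts also had higher medians at 10 µM, but without the other features seen in naive cells. The 584 transcripts that fell in naive and EIF4A1 KO cells had medians of -0.76 and -0.66, and 393 (67.3%) were higher at 10 µM, against 51.4% of all transcripts, with a median change of 0.066. The 161 that fell by more than 1 changed by a median of 0.052, from -1.83 to -1.73, less than the 0.094 of the 175 that fell by 0.5 to 1. The 152 that rose changed by a median of 0.0082, and 52.6% were higher at 10 µM. Between the EIF4A2 KO DMSO libraries, library 1 was above library 2 for 46.4% of the 584, 54.0% of the 161 and 59.9% of the 152. It was above for 37.9% of the 248 that fell by less than 0.5. The difference of naive and EIF4A2 KO medians was not tested. Neither other scaling tried moved a genotype's 10 µM minus 1 µM difference by more than 0.011 in its median. The signs of groups with a shift above that were thus the same under the scalings tried. These scalings, like the main one, take most transcripts as unchanged, so they cannot show a change common to most transcripts.

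**Figure D2:**
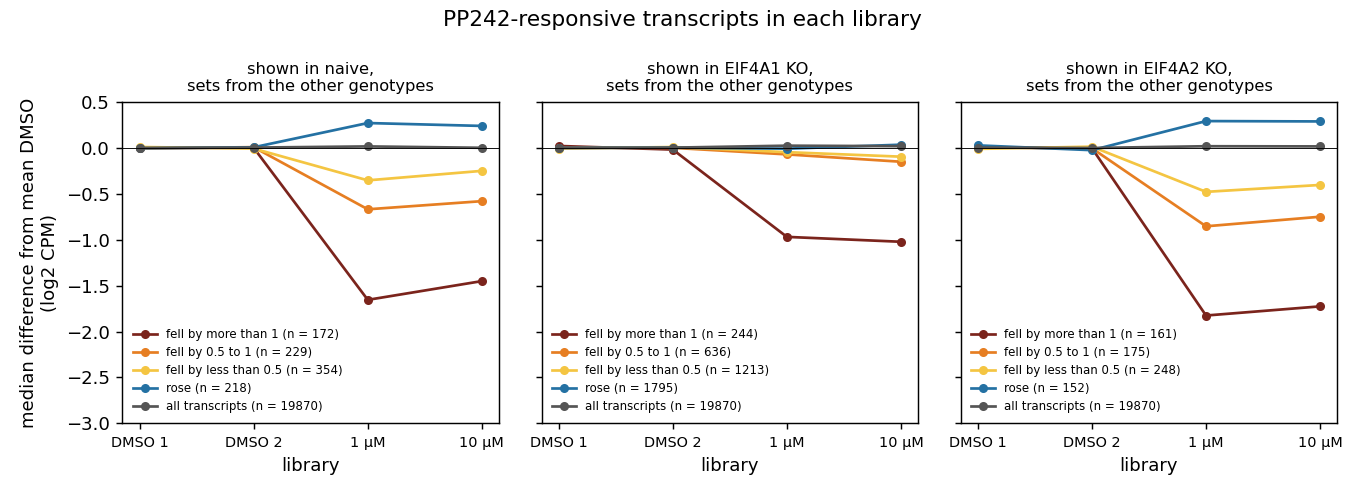
Median log2 CPM difference from the mean of the DMSO libraries for responsive transcripts, shown in each genotype's 4 libraries, with groups defined by the size and sign of the response in the other genotypes. From 1 to 10 µM, the transcripts that fell by more than 1 went from -1.66 to -1.45 in naive cells, from -0.97 to -1.02 in EIF4A1 KO cells and from -1.83 to -1.73 in EIF4A2 KO cells.

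With the EIF4A1 KO pair left out, the naive and EIF4A2 KO pairs gave 62 calls among 18534 transcripts (0.335%) in edgeR's test, 46 higher at 10 µM (0.248%) and 16 lower (0.0863%). This fit has 4 libraries, and edgeR pooled the spread over all transcripts, so its p-values rest on that pooling. Some of the 46 had nearly the same values as another of them, so a locus may count more than once. The 46 had a median change of 0.27, ranging from 0.16 to 2.29. Of them, 39 were below DMSO at both doses in naive cells, with medians of -1.03 at 1 µM and -0.74 at 10 µM. In EIF4A2 KO cells the medians were -1.26 and -0.87. Over all transcripts the share below DMSO at both doses was not counted. Of the 46, 25 fell by more than 0.5 at both doses in naive cells and 30 in EIF4A2 KO cells. Among the 5756 abundant transcripts, differences above 0.5 in either direction made up 9.14% at 1 µM and 7.57% at 10 µM in naive cells. In EIF4A2 KO cells they made up 10.3% and 8.30%. These shares take each dose alone and both directions, so they are not a like measure for the 25 and 30. Most of the 46 lay below DMSO, but no like share over all transcripts stands beside that comparison. The same 1 µM libraries enter the calls and this comparison, so a low 1 µM value favours both.

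In the EIF4A1 KO libraries, which had no part in those calls, most of them had the opposite sign. This pair was singled out because leaving it out raised the count of calls. That choice favours transcripts on which the pair disagrees with the others, so the signs are given as a description only. Of the 46, 42 were lower at 10 than at 1 µM in EIF4A1 KO cells, with a median change of -0.12 and medians of -0.51 and -0.67 relative to DMSO. In these cells 51.2% of all 19870 transcripts were lower at 10 µM and 48.8% higher. Among the 2093 that fell in the other genotypes, 67.0% were lower. Of the 16 called lower, 12 were higher at 10 µM in EIF4A1 KO cells, with a median change of 0.12, beside -0.47 in naive and -0.42 in EIF4A2 KO cells. Under the other scalings 41 to 42 of the 46 kept this opposite sign, and 12 of the 16. Relative to DMSO, the medians of those 16 at 1 and 10 µM were 0.13 and -0.37 in naive cells and 0.29 and -0.19 in EIF4A2 KO cells, and ENST00000501597.3, described below, was below DMSO by more than 1 in both genotypes at both doses.

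**Figure D3:**
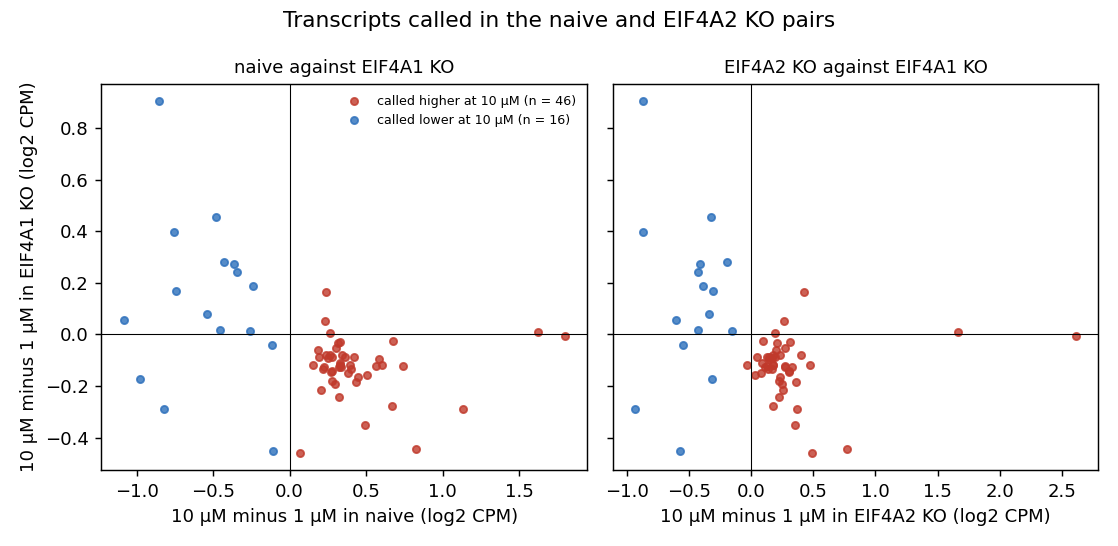
Change from 1 to 10 µM PP242 (log2 CPM) in EIF4A1 KO cells against the same change in naive (left) and EIF4A2 KO cells (right), 1 point for each of the 62 transcripts called in the naive and EIF4A2 KO pairs. Of the 46 called higher (red), 42 lie below 0 on the vertical axis, and 12 of the 16 called lower (blue) lie above it. Over all 19870 transcripts, 51.2% were below 0 and 48.8% above it in EIF4A1 KO cells.

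Single genotypes have 1 library per dose, so their tests borrowed the spread from the DMSO pairs in a fit with 1 mean per genotype and treatment. PP242 libraries were assumed to vary like DMSO libraries. edgeR also pooled most of this spread over transcripts, with a median of 244 total degrees of freedom. Calls from this fit, and from the contrasts between genotypes below, rest on that pooling and not on replicates at each dose. In naive cells 17 of 19870 transcripts were called (0.0856%), 16 higher (0.0805%) and 1 lower (0.00503%) at 10 µM. The 16 rose by a median of 0.46, and 15 of them were below DMSO at both doses, with medians of -2.16 at 1 µM and -1.75 at 10 µM. The 1 µM library enters both the calls and that comparison, and the share over all transcripts was not counted. All 16 were lower at 10 µM in EIF4A1 KO cells, and 14 were higher in EIF4A2 KO cells. EIF4A1 KO cells had 16 calls (0.0805%), 2 higher (0.0101%) and 14 lower (0.0705%), but 7 under DESeq2's size factors, 1 with a filter of 50 counts and 1 with all libraries thinned to the shallowest. Without a naive DMSO library the count was 2 in either case, without EIF4A1 KO DMSO library 2 it was 8, and without either EIF4A2 KO DMSO library it was 9. EIF4A2 KO cells had 3 (0.0151%), 2 higher (0.0101%) and 1 lower (0.00503%), and 0 after thinning.

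For a small number of transcripts the 10 µM minus 1 µM difference was not the same in the EIF4A1 KO and naive libraries, 1 per dose in each. A contrast of both changes, with the spread taken from the DMSO pairs, called 39 transcripts (0.196%), 36 of them with a lower 10 µM minus 1 µM change in the knockout (0.181%) and 3 with a higher one (0.0151%). The 36 differed by a median of -0.58, between -3.10 and -0.44. All 36 were higher at 10 µM in naive cells and lower in EIF4A1 KO cells, and 30 were higher in EIF4A2 KO cells. Their medians relative to DMSO went from -1.67 to -1.31 in naive, from -0.77 to -0.95 in EIF4A1 KO and from -1.86 to -1.56 for EIF4A2 KO. These directions follow from the contrast that chose the transcripts and are given as a description.

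With all libraries thinned to the shallowest, 25 of the 39 were still called, and all 39 kept their direction. The knockouts' dose effects differed for 7 transcripts (0.0352%), 6 of them with a lower change where EIF4A1 was knocked out (0.0302%) and 1 with a higher one (0.00503%). That count fell to 2 without either naive DMSO library, without EIF4A1 KO DMSO library 1, under DESeq2's size factors, with a filter of 50 counts and after thinning. Between EIF4A2 KO and naive cells edgeR called 0 (0%), with 877 at an unadjusted p under 0.05 (4.41%).

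Seen over a group chosen in EIF4A2 KO cells alone, the median gap was smaller at 10 µM. The 278 transcripts that fell by more than 1 there had medians of -1.45 (1 µM) and -1.19 (10 µM) in naive cells, and of -0.90 and -0.95 where EIF4A1 was knocked out. Some of the 278 had the same values as another of them, so a locus may count more than once. The gap between EIF4A1 KO and naive cells, per transcript, had a median of 0.61 at 1 µM and 0.30 at 10 µM. The signed difference, EIF4A1 KO minus naive, was lower at 10 µM for 231 of 278 (83.1%), with a median change of -0.35. Its size, whatever the sign, was smaller at 10 µM for 216 (77.7%), beside 54.8% of all transcripts. The contrast above, which uses the same libraries, called 24 of the 278, beside 39 of all 19870 transcripts (0.196%). The 278 had a median log2 CPM of 6.60, against 3.65 over all transcripts, so this comparison is not matched for abundance. Over all transcripts the median change of the signed difference was -0.0042, and it was lower for 50.4%. The change was -0.36 with libraries thinned to equal depth, and -0.16 over the 1592 transcripts that fell by any amount in EIF4A2 KO cells. The smaller fall in EIF4A1 KO cells thus stood out more at the lower dose. With 1 library per dose and genotype, a dose effect and a property of that library cannot be told apart.

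**Figure D4:**
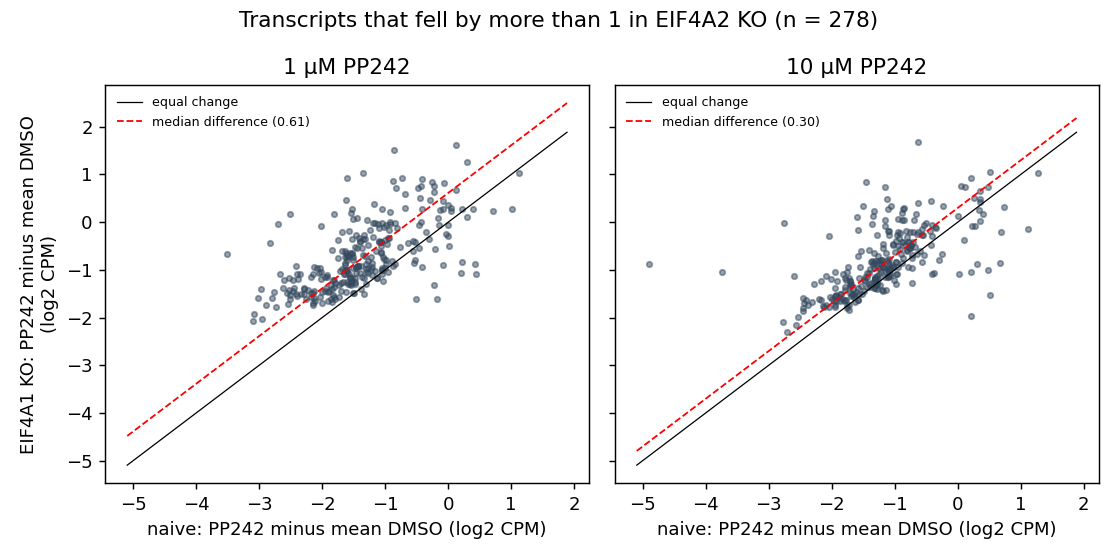
PP242 response (log2 CPM minus the mean of the DMSO libraries) of 278 transcripts that fell by more than 1 in EIF4A2 KO cells, in EIF4A1 KO cells (vertical) against naive cells (horizontal), at 1 µM (left) and 10 µM (right). The dashed line stands above the line of equal change by the median difference, 0.61 at 1 µM and 0.30 at 10 µM.

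Genotypes also shared little of their dose difference over all abundant transcripts. Over the 5756 transcripts, the Spearman correlation of the 10 µM minus 1 µM difference was 0.18 between naive and EIF4A2 KO cells, -0.12 between naive and EIF4A1 KO cells and -0.12 between the knockouts. These pairs share no library, but transcripts are not independent replicates. Arbitrary differences between DMSO libraries gave -0.19, -0.057 and 0.0085 for the same pairs, so values of this size are no finding.

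The 4 transcripts below are named by identifier. ENST00000229239.10 was singled out after its values were seen, for the lowest adjusted p in the contrast of EIF4A1 KO and naive dose effects. Its footprints in naive cells were 4482 and 4801 CPM in DMSO, 1441 at 1 µM and 2030 at 10 µM. EIF4A1 KO cells had 4167 and 3846 in DMSO, 2644 at 1 µM and 2073 at 10 µM. EIF4A2 KO cells had 4098 and 4093, then 1097 and 1399. All PP242 libraries lay below all DMSO libraries, and 10 µM stood above 1 µM in naive and EIF4A2 KO cells but below it in EIF4A1 KO cells. The change from 1 to 10 µM was 0.49 for naive, -0.35 for EIF4A1 KO and 0.35 for EIF4A2 KO cells, with 1 library per dose in each. EIF4A1 KO differed from naive by -0.85.

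ENST00000501597.3 had the lowest p of the paired comparison. In naive cells it had 385.1 and 427.3 CPM in DMSO, 133.3 at 1 µM and 123.5 at 10 µM. EIF4A1 KO had 342.0 and 422.2, then 219.7 and 160.6, and EIF4A2 KO 336.6 and 379.0, then 146.9 and 98.8. It fell at both doses against DMSO, with log2 changes of -1.22 at 1 µM and -1.61 at 10 µM (edgeR adjusted p = 1.96e-09 and 1.16e-11). The further difference at 10 µM was -0.40 (SE 0.074, interval -0.55 to -0.24), lower in 3 of 3 genotypes, with an edgeR adjusted p of 0.172 (3.45e-05 to 0.99997 over the alternatives). It passed without the naive pair (-0.51, adjusted p = 3.45e-05) and without the EIF4A1 KO pair (-0.37, adjusted p = 0.0032). Its counted region is among the shortest listed (16, in a unit the files do not state), and its counts are identical to those of 1 other transcript.

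ENST00000526696.6 had the lowest p among transcripts higher at 10 µM in all 3 genotypes. Naive cells had 146.5 and 139.7 CPM in DMSO, 123.0 at 1 µM and 145.2 at 10 µM. EIF4A1 KO had 130.5 and 119.7, then 121.9 and 136.7, and EIF4A2 KO 127.7 and 121.4, then 107.2 and 143.8. Within genotypes, 10 µM lay between the DMSO libraries in naive cells and above both in each knockout, and 10 µM was above 1 µM in all 3. The mean difference between doses was 0.28 (SE 0.070, interval 0.13 to 0.42, edgeR adjusted p = 0.9997). Without the EIF4A1 KO pair it was 0.34 and passed (adjusted p = 0.0135, and 0.0135 to 0.99997 over the alternatives).

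ENST00000239938.5, a rarer transcript, had 5.63 and 6.07 CPM in DMSO, 5.02 at 1 µM and 4.33 at 10 µM in naive cells. EIF4A1 KO had 5.71 and 6.63, then 18.2 and 9.10, and EIF4A2 KO 8.52 and 8.85, then 9.98 and 4.56. The 1 µM library of EIF4A1 KO cells stood above every other library, and in each genotype 10 µM was below 1 µM. The difference between doses was -0.92 (SE 0.21, interval -1.35 to -0.48) with an edgeR adjusted p of 0.9997 (0.0951 to 0.99997 over the alternatives).

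**Figure D5:**
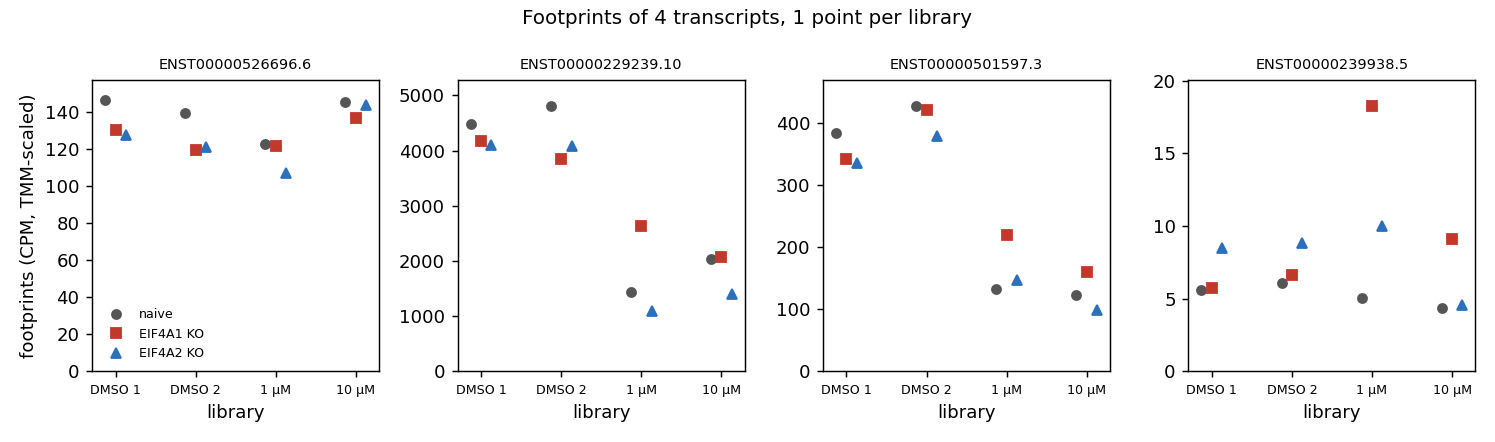
Footprints (TMM-scaled CPM, linear axes from 0) of 4 transcripts in the 12 ribosome profiling libraries, 1 point per library: naive (circles), EIF4A1 KO (squares) and EIF4A2 KO (triangles). ENST00000229239.10 was higher at 10 than at 1 µM in naive and EIF4A2 KO cells and lower in EIF4A1 KO cells; ENST00000501597.3 was lower at 10 µM in all 3 genotypes.

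The dose difference followed the listed length of the counted region weakly and with opposite sign. Among 5756 abundant transcripts in 5 bins of equal number by length, the median 10 µM minus 1 µM difference ran from 0.054 in the shortest to -0.016 in the longest bin in naive cells, and from 0.033 to -0.0052 in EIF4A2 KO cells. In EIF4A1 KO cells it ran from -0.028 to 0.024. The Spearman correlation with length was -0.16 in naive, -0.12 in EIF4A2 KO and 0.14 in EIF4A1 KO cells, beside 0.0033, 0.023 and 0.081 for the difference between DMSO libraries. Length and the PP242 response go together here. The 172 transcripts that fell by more than 1 in the knockouts had a median listed length of 136.5. Over all 19870 transcripts, rarer ones included, the median was 245, and the middle bin of the 5756 abundant ones ran from 350 to 534. The share of length and of response in the dose difference was not tested.

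Enrichment with tagged eIF4A1 or eIF4A2 came from other libraries of the series, in which the protein carried a streptavidin-binding peptide (SBP) and was captured with its RNA. In EIF4A1 KO cells the median dose difference was 0.035 in the bin of transcripts least enriched with SBP-eIF4A1 and -0.051 in the most enriched bin of 5. In naive cells it was -0.0026 and 0.041. With SBP-eIF4A2 the corresponding medians were 0.033 and -0.034 for EIF4A1 KO, close to those with SBP-eIF4A1, but 0.016 and 0.013 for naive. In the SBP-eIF4A1 bins, the difference between DMSO libraries had medians of 0.020 and -0.015 for EIF4A1 KO, and of 0.029 and -0.018 for naive. Transcripts in these bins share libraries and depth, and the relations are weak.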

How the data were processed

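Ribosome profiling libraries were compared from the whole-number counts per transcript that the authors deposited, with no scaling. CASAVA 1.8, STAR 2.7.0a and hg38 are named per the submitters' processing notes, without their roles, and the annotation is not given in the sources used here. The deposited files also list a length per transcript, used only for ranking. Of 94734 transcripts with a count, those with equal counts in all 31 files were collapsed to 77343. Of these, 35424 were kept by a rule aimed at 1 per locus. A transcript was dropped when its log2 CPM correlated at 0.9 or more with a kept one within 10 rows. This locus rule is approximate. Some kept transcripts still had the same or nearly the same values as another, so counts of transcripts may include the same reads more than once. Tests used edgeR 4.0.16 in R 4.3.3 (TMM, filterByExpr with a minimum count of 10 and total of 15, glmQLFit, glmQLFTest, two-sided, Benjamini-Hochberg, called under 0.05), and DESeq2 1.42.0 as an alternative. The paired fit used 6 libraries with 2 residual degrees of freedom. The fit over 12 libraries had 9 means. An exact sign permutation of 3 pairs cannot go below p = 0.25, so single-transcript permutation tests were not used. Log2 CPM used a prior count of 0.5. The scripts were tested on simulated data. Reads carry no stated molecular identifiers, so precision covers counting error as deposited. Members, groups and rules were chosen with earlier results of these data known. For naming, the rule took up to 2 transcripts per direction with the same sign in 3 genotypes and at least 5 CPM, in order of p when none was called; 3 of those 4 are named, with 1 other. Planned gene lists and markers were not applied, as no transcript was matched to a gene.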

Additional observations from a re-analysis of the deposited data

Results flagged for a closer look

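The change from 1 to 10 µM PP242 differed between the genotypes' libraries in edgeR's contrasts of these changes, with the spread taken from the DMSO pairs. Between EIF4A1 KO and naive cells, 39 transcripts differed, and 36 of them were higher at 10 µM in naive cells and lower in EIF4A1 KO cells. Between the knockouts, 7 transcripts differed. The 39 and the 7 were 0.196% and 0.0352% of the 19870 transcripts tested. The directions of the 36 follow from the contrast that chose them and are given as a description. Each dose and genotype had 1 library, and the depth of the 10 µM library relative to the 1 µM library also differed between naive cells and the knockouts. After thinning to equal depth the counts were 25 and 2. Whether other properties of single libraries had a part was not tested.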

How the results depend on the processing

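The count of 0 shared dose calls stayed at 0 under 9 of 13 alternatives, the fit with no replicate block among them (0 called, 158 at an unadjusted p under 0.05), although the libraries are paired by genotype only. It was 1 without a filter on low counts, 1 for the mean of the 3 genotypes' contrasts, and 0 to 62 when a pair was left out. The 17 naive calls were 15 to 22 under 9 alternatives. The 16 calls in EIF4A1 KO cells became 7 with DESeq2's size factors, 1 with at least 50 counts, 1 after thinning (chosen after seeing the data) and 2 to 11 without a DMSO library. The 3 calls in EIF4A2 KO cells became 0 after thinning. For EIF4A1 KO against naive cells the 39 became 25 after thinning and were 33 to 38 without a DMSO library; 0 remained the count for EIF4A2 KO against naive cells under 9 alternatives. The 7 between knockouts became 2 with DESeq2's size factors, 2 with at least 50 counts, 2 after thinning and 2 to 6 without a DMSO library. Thinning and the stricter filter leave fewer counts or transcripts; otherwise the cause was not tested. The median change of the gap stayed between -0.38 and -0.16 under 8 alternatives chosen after seeing the data. Alternatives on gene lists were not run, since no transcript was matched to a gene. Depth limits what can be said below 5 CPM, where intervals had a median half-width of 0.66.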
